A study of Danio rerio with 23 samples.

Results

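The cell cycle and DNA replication genes of early zebrafish embryos were followed as a set of 37 gene symbols, taken by name. Gene rows carrying these names were taken from each library's table, and rrm2 was found as 2 rows, rrm2_1 and rrm2_2, so that the set held 38 of the 31743 genes listed. All 38 passed the filter on low counts and were tested. The set holds 10 genes of the replication machinery, 2 origin licensing factors, 4 genes of G1 phase and S phase entry, and 22 genes of mitosis.

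DNA replication begins when Cdc6 and Cdt1 load the ring of Mcm2 to Mcm7 proteins onto origins, where it becomes the core of the replicative helicase, while PCNA clamps polymerases to DNA and ribonucleotide reductase supplies deoxynucleotides. Cyclins E and A drive S phase, and cyclins A and B with Cdk1 drive entry into mitosis, after which the spindle checkpoint holds the anaphase-promoting complex until chromosomes are attached. In fish embryos the first divisions are fast, synchronous and run on products that the egg supplied, and the cycle becomes longer and uneven between cells from the blastula onward.

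Embryos came from hs:wnt8a/+ or hs:dkk1b/+ carriers crossed to wild-type fish. The first transgene puts wnt8a, a Wnt ligand, and the second dkk1b, a secreted Wnt antagonist, under a heat-shock promoter that acts in the whole embryo. The 4 transgenic groups were hs:wnt8a/+ at 7.5 hours post fertilisation (hpf), hs:wnt8a/+ at 5.5 hpf, hs:dkk1b/+ at 7.5 hpf and hs:dkk1b/+ at 5.5 hpf, and each had a group of siblings labelled genotypically wild type that went through the same heat shock. Each group held 3 libraries, except hs:wnt8a/+ at 5.5 hpf with 2, for 23 libraries in 8 groups. The heat shock was 39 °C for 30 minutes in the hs:wnt8a crosses and 37 °C for 60 minutes in the hs:dkk1b crosses, in batches of 10 embryos, and recovery was at 29 °C in both. The title times 7.5 and 5.5 hpf are used as names, since another field gives 7 and 5 hpf and the labels do not settle which is the time of heat shock. Carriers were picked by fluorescence, and embryos of several mating pairs were collected. Nothing in the labels ties the libraries of a group to separate clutches, and p-values therefore reflect variation among these libraries that may be technical.

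Total counts ran from 13845788 to 20467185 per library. Levels are given as CPM, counts scaled to a common library size with TMM factors, and p-values come from edgeR's quasi-likelihood F test over all 19504 genes tested with Benjamini-Hochberg adjustment at 0.05. In whole embryos fewer cells of a type and less RNA per cell cannot be told apart. The carried genes followed the labels in transgenic embryos, with wnt8a_1 at 3647, 4218 and 3092 CPM in hs:wnt8a embryos at 7.5 hpf and dkk1b at 19063, 2329 and 3499.9 CPM in hs:dkk1b embryos at 7.5 hpf. The sibling libraries labelled wild type were not free of wnt8a_1 reads in the hs:wnt8a crosses, with 179.7, 2.33 and 14.8 CPM at 7.5 hpf and 588, 392 and 721 CPM at 5.5 hpf. Siblings of hs:dkk1b held 4.41, 6.31 and 4.17 CPM of wnt8a_1 at 7.5 hpf. Libraries of a group differed by 2.884 to 48.33 times the chi-square of sampling noise per degree of freedom, so none was treated as a copy.

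Some libraries stood apart for the cell cycle genes. Replicate 2 of the hs:dkk1b cross at 5.5 hpf was the highest of 3 for 31 of the 38 genes in transgenic embryos and for 32 in siblings, while it was the highest for 40.1% and 38.9% of all genes tested. Replicate 1 of the hs:wnt8a cross at 7.5 hpf was the highest for 21 genes in transgenic embryos and 31 in siblings, against 40.7% and 44.1% of all genes. In siblings of hs:dkk1b at 7.5 hpf replicate 2 was the highest for 27 genes, against 36.4% of all genes. In hs:wnt8a embryos at 7.5 hpf replicate 3 was the lowest for 27 genes, against 32.4% of all genes. Replicate 2 of the siblings of hs:wnt8a at 5.5 hpf was mixed, highest for 15 genes and lowest for 17, beside 41.9% and 43.9% of all genes. By these counts it had no common direction over the cell cycle genes, but it did differ from the other libraries of its group. Its noise measure as above was 29.05 against replicate 1 and 30.04 against replicate 3, while replicates 1 and 3 had 2.884. Its log2 deviation from the group mean was -0.43 for mcm4, -0.39 for mcm2 and -0.65 for rrm2_2, and 0.41 for rrm2_1 and 0.15 for mcm3. Replicate 1 of the hs:dkk1b cross at 7.5 hpf stood apart for the heat shock gene hsp70l. It had 2654 CPM in transgenic embryos and 1228 CPM in siblings, against 40.7 to 78.0 CPM in replicates 2 and 3. Counts of changed genes are given below with and without these libraries where that moved a count by over 1.5 times.

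**Figure D1:**
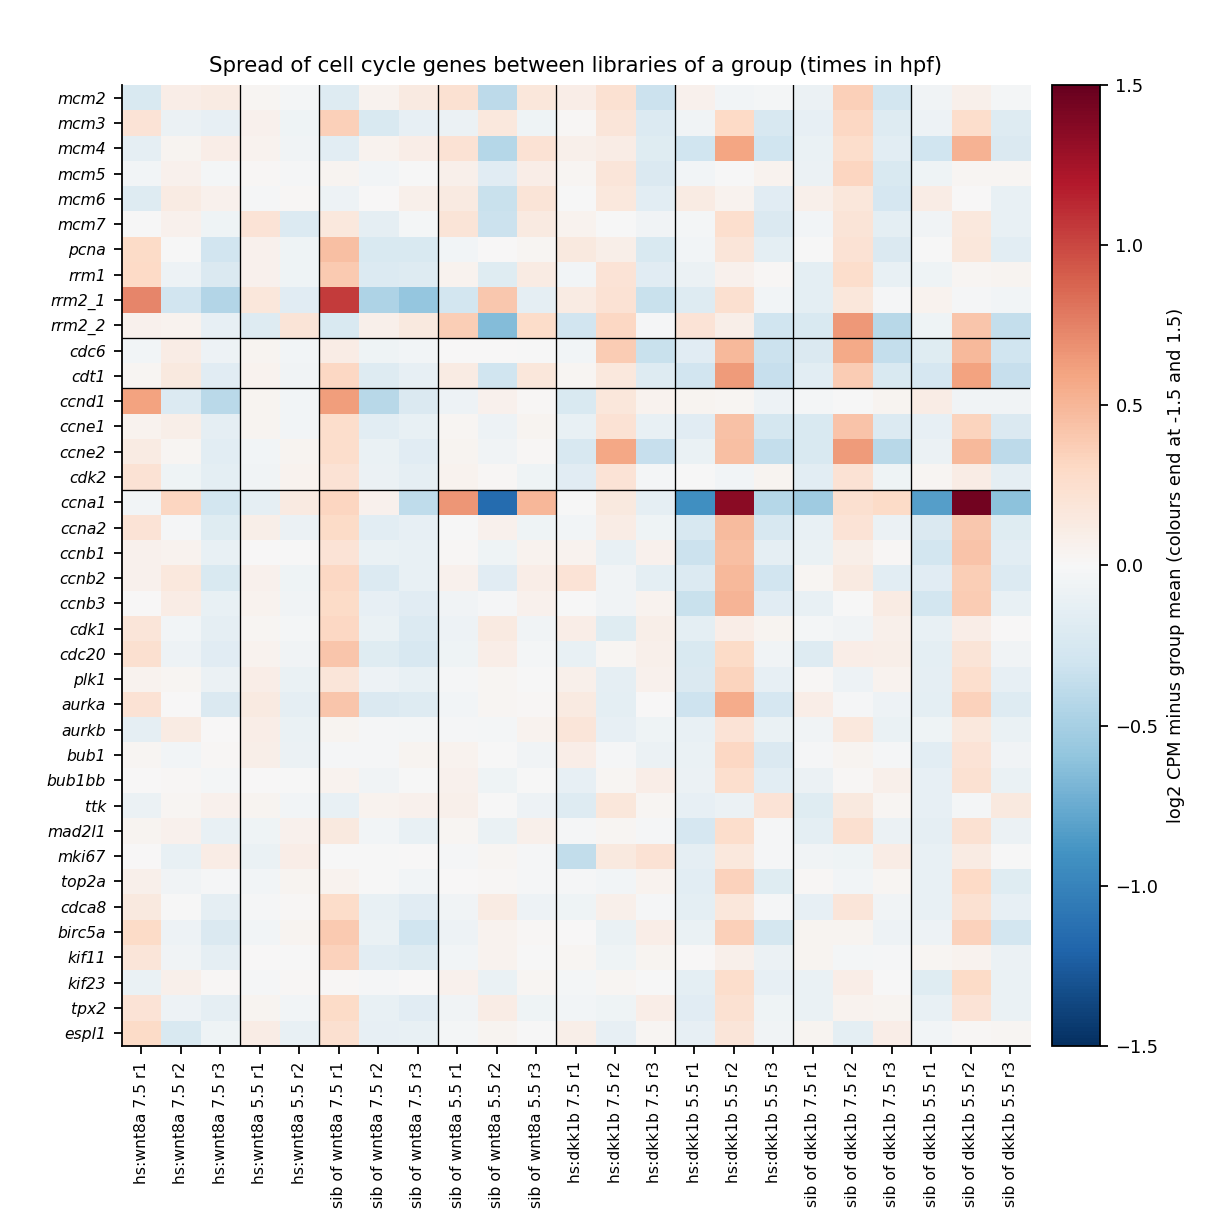
Log2 CPM of each gene (rows, grouped as replication, licensing, G1/S and mitosis) minus its group mean, in each of the 23 libraries (columns, r = replicate, sib of = siblings of). Replicate 2 of the hs:dkk1b cross at 5.5 hpf is red for most rows in transgenic embryos and siblings, and replicate 1 of the hs:wnt8a cross at 7.5 hpf is red for rrm2_1 and ccnd1.

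Between the times, the genes as a set were lower at 7.5 hpf in both sibling lines. Of the 38 genes 34 fell in siblings of hs:wnt8a and 0 rose, where 18.4% of all genes tested fell and 21.8% rose. Siblings of hs:dkk1b had 26 of 38 genes that fell and 2 that rose, mcm2 and mcm5, where 15.4% of all genes fell and 15.6% rose. The median log2 fold change of the 38 genes, 7.5 hpf over 5.5 hpf, was -0.68 in siblings of hs:wnt8a and -0.53 in siblings of hs:dkk1b, beside 0.04 and 0.04 over all genes. A total of 25 of the 38 genes fell in both lines, where 11.6% of all genes did. Libraries at 7.5 and 5.5 hpf did not overlap for 33 of 38 genes in siblings of hs:wnt8a and for 30 in siblings of hs:dkk1b. Of all genes 48.6% and 45.7% had no such overlap in these lines. The count of changed genes in siblings of hs:dkk1b was 16 in place of 28 without replicate 2 at 5.5 hpf, with 2 higher and 14 lower, and 18 without both libraries of replicate 1 of that cross at 7.5 hpf. The call held whichever single library was left out for 24 of 34 genes in siblings of hs:wnt8a and for 16 of 28 in siblings of hs:dkk1b. The shares of all genes that changed or held in these reduced runs are not given here. The lower counts are therefore not read as particular to the cell cycle genes.

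**Figure D2:**
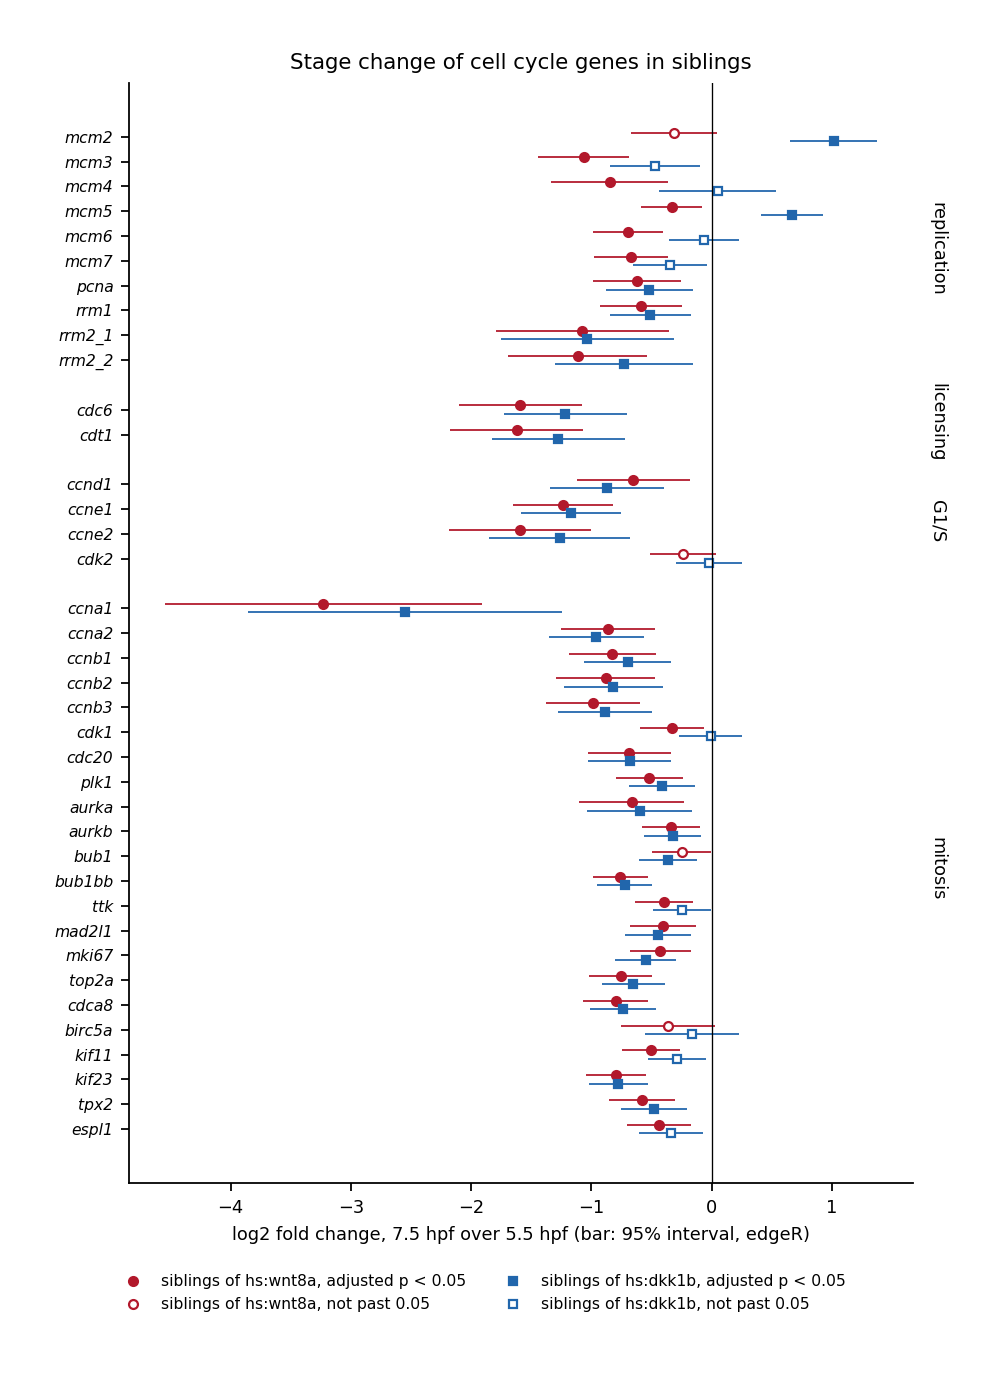
Log2 fold change of each of the 38 genes, 7.5 hpf over 5.5 hpf, in siblings of hs:wnt8a (red circles) and of hs:dkk1b (blue squares), with 95% intervals from edgeR; filled symbols passed an adjusted p of 0.05. Most points lie left of 0, the filled symbols right of it are mcm2 and mcm5 in siblings of hs:dkk1b, and ccna1 is farthest left in both.

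The 6 genes of the Mcm ring did not move alike. The level of mcm2 (ENSDARG00000102798) in siblings of hs:wnt8a was 163, 193 and 204 CPM at 7.5 hpf, against 266, 173 and 255 CPM at 5.5 hpf. The siblings of hs:dkk1b had mcm2 at 230.2, 312 and 202 CPM at 7.5 hpf, against 118, 129.9 and 121 CPM at 5.5 hpf. The 3 libraries at 7.5 hpf were thus all above the 3 at 5.5 hpf in siblings of hs:dkk1b, and the times overlapped in siblings of hs:wnt8a, where replicate 2 at 5.5 hpf was the low one. The log2 fold change of mcm2 was -0.31 ± 0.17 (SE) in siblings of hs:wnt8a (adjusted p = 0.155) and 1.01 ± 0.17 (SE) in siblings of hs:dkk1b (adjusted p = 3.45e-04). For mcm5 (ENSDARG00000019507), siblings of hs:wnt8a had 224, 212 and 217 CPM at 7.5 hpf, against 289, 242 and 293 CPM at 5.5 hpf. Its level in siblings of hs:dkk1b was 218, 291 and 198 CPM at 7.5 hpf, against 141, 152 and 151 CPM at 5.5 hpf. Neither pair of groups overlapped, and the difference went down with time in the first line and up in the second, with log2 fold changes of -0.33 ± 0.12 (SE) and 0.67 ± 0.12 (SE) (adjusted p = 0.0349 and 5.60e-04). The fall of mcm5 in siblings of hs:wnt8a did not pass without replicate 1 or 3 at 5.5 hpf or replicate 2 or 3 at 7.5 hpf (adjusted p up to 0.121), and its rise in siblings of hs:dkk1b passed whichever single library was left out.

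The other 4 subunits fell in siblings of hs:wnt8a and did not pass the test in siblings of hs:dkk1b. The level of mcm3 in siblings of hs:wnt8a was 405, 269 and 290.1 CPM at 7.5 hpf, against 633, 745 and 639 CPM at 5.5 hpf, and in siblings of hs:dkk1b 279, 377 and 267 CPM at 7.5 hpf, against 401, 508 and 371 CPM at 5.5 hpf. Its log2 fold changes were -1.06 ± 0.18 (SE) in siblings of hs:wnt8a, with an adjusted p of 1.88e-04, and -0.47 ± 0.18 (SE) in siblings of hs:dkk1b, with an adjusted p of 0.0514. The level of mcm6 was 309, 329 and 345 CPM at 7.5 hpf, against 574, 416 and 601 CPM at 5.5 hpf, in siblings of hs:wnt8a, and 362, 385 and 287 CPM at 7.5 hpf, against 388, 359 and 331 CPM at 5.5 hpf, in siblings of hs:dkk1b. The 7.5 hpf levels of mcm6 were much the same in both lines, and the 5.5 hpf levels were higher in siblings of hs:wnt8a. For mcm6, mcm4 and mcm7 the log2 fold changes were -0.69, -0.85 and -0.67 in siblings of hs:wnt8a, and -0.06, 0.05 and -0.34 in siblings of hs:dkk1b. The files also list copies named mcm3l and mcm6l, and mcm6l was chosen after its values were seen. Siblings of hs:wnt8a had mcm6l levels of 17.1, 9.86 and 9.91 CPM at 7.5 hpf, against 71.3, 63.3 and 76.2 CPM at 5.5 hpf, and in siblings of hs:dkk1b 11.7, 16.1 and 14.0 CPM at 7.5 hpf, against 42.5, 94.3 and 62.6 CPM at 5.5 hpf. It fell in both lines, by log2 fold changes of -2.52 ± 0.31 (SE) and -2.25 ± 0.31 (SE) (adjusted p = 1.46e-05 and 5.81e-05), where mcm6 passed in siblings of hs:wnt8a only. How reads shared by such copies were split is not given in the sources used here, and values of mcm3, mcm6 and rrm2 are uncertain to that extent.

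The polymerase clamp gene pcna (ENSDARG00000054155) had the highest level per length of the set in every group, with 1299.7 ± 253 TPM (SD, n = 3) at 7.5 hpf and 1775 ± 62.7 TPM (SD, n = 3) at 5.5 hpf in siblings of hs:wnt8a, on the authors' own TPM scale. On the CPM scale siblings of hs:wnt8a had 1002, 626 and 628 at 7.5 hpf, against 1125, 1161 and 1181 at 5.5 hpf, and siblings of hs:dkk1b had 688, 806 and 597 at 7.5 hpf, against 989.6, 1115 and 887 at 5.5 hpf. Replicate 1 at 7.5 hpf was the high library in siblings of hs:wnt8a, but the times did not overlap in either line. It fell by log2 fold changes of -0.62 ± 0.17 (SE) and -0.52 ± 0.17 (SE) (adjusted p = 0.00848 and 0.0303). The call did not hold in siblings of hs:dkk1b without replicate 1 or 2 at 5.5 hpf or replicate 1 or 3 at 7.5 hpf (adjusted p up to 0.130), nor in siblings of hs:wnt8a without replicate 2 at 7.5 hpf (adjusted p = 0.0531).

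Ribonucleotide reductase, which makes deoxynucleotides, has a large subunit encoded by rrm1 and a small one by rrm2. The large subunit gene rrm1 fell in both lines, with log2 fold changes of -0.59 in siblings of hs:wnt8a and -0.51 in siblings of hs:dkk1b. Both copies of the small subunit gene also fell, rrm2_1 (ENSDARG00000078069) by log2 fold changes of -1.07 and -1.04 and rrm2_2 (ENSDARG00000020711) by -1.11 and -0.73. The share of the copies varied between libraries, and their values per library, like those of mcm5, were chosen after they were seen. For rrm2_1, siblings of hs:wnt8a had 949, 332 and 307 CPM at 7.5 hpf, against 905, 1446 and 994 CPM at 5.5 hpf, while rrm2_2 had 308, 381 and 399 CPM at 7.5 hpf, against 968, 478 and 907 CPM at 5.5 hpf. Replicate 2 at 5.5 hpf was the highest of its group for rrm2_1 and the lowest for rrm2_2, and rrm2_1 took 75.2% of the summed copies there, beside 48.3% and 52.3% in replicates 1 and 3. The sum of both copies in that group was 1873, 1924 and 1901 CPM, close to even. At 7.5 hpf rrm2_1 took 75.5% in replicate 1, beside 46.6% and 43.4% in replicates 2 and 3, and the sum was 1258, 713 and 706 CPM. The times overlapped for rrm2_1 in siblings of hs:wnt8a through replicate 1 at 7.5 hpf, and its call there did not pass without replicate 2 at 5.5 hpf or replicate 2 or 3 at 7.5 hpf (adjusted p up to 0.0953). Neither copy in siblings of hs:dkk1b passed without replicate 1 or 2 at 5.5 hpf or replicate 1 or 3 at 7.5 hpf (adjusted p up to 0.0878 for rrm2_1 and 0.246 for rrm2_2), and rrm1 did not without replicate 2 at 5.5 hpf or replicate 1 or 3 at 7.5 hpf (adjusted p up to 0.0885).

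Both loaders of the helicase, cdc6 and cdt1, fell in both lines. For cdc6, siblings of hs:wnt8a had 180.4, 159.9 and 162 CPM at 7.5 hpf, against 505, 505 and 504 CPM at 5.5 hpf, and in siblings of hs:dkk1b 153, 264 and 139 CPM at 7.5 hpf, against 366, 584 and 339 CPM at 5.5 hpf. For cdt1 (ENSDARG00000051854) siblings of hs:wnt8a had 193, 136 and 143 CPM at 7.5 hpf, against 523, 389.6 and 539 CPM at 5.5 hpf, and siblings of hs:dkk1b 138, 199.9 and 131 CPM at 7.5 hpf, against 303, 548 and 284 CPM at 5.5 hpf. Replicate 2 at 5.5 hpf was the high library for both genes in siblings of hs:dkk1b, and no groups overlapped. The log2 fold changes of cdc6 were -1.59 ± 0.25 (SE) and -1.22 ± 0.24 (SE) (adjusted p = 9.09e-05 and 0.00114), and those of cdt1 were -1.62 ± 0.27 (SE) and -1.28 ± 0.26 (SE) (adjusted p = 1.46e-04 and 0.00143).

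Both cyclin E genes, which encode the activating partner of Cdk2, fell in both lines, while cdk2 itself did not pass the test. The level of ccne1 in siblings of hs:wnt8a was 106, 79.7 and 82.3 CPM at 7.5 hpf, against 214, 199.8 and 217 CPM at 5.5 hpf, and in siblings of hs:dkk1b 65.3, 103 and 66.2 CPM at 7.5 hpf, against 159, 219 and 149 CPM at 5.5 hpf. That of ccne2 in siblings of hs:wnt8a was 144, 112 and 106 CPM at 7.5 hpf, against 372, 350.3 and 368 CPM at 5.5 hpf, and in siblings of hs:dkk1b 105, 191 and 91.6 CPM at 7.5 hpf, against 282, 421 and 228 CPM at 5.5 hpf. All libraries at 7.5 hpf lay below all libraries at 5.5 hpf for both genes. Log2 fold changes of ccne1 were -1.23 ± 0.20 (SE) and -1.17 ± 0.20 (SE), and those of ccne2 were -1.59 ± 0.28 (SE) and -1.26 ± 0.28 (SE), with adjusted p = 1.28e-04, 3.45e-04, 2.85e-04 and 0.00249 in that order. For cdk2 the log2 fold changes were -0.24 (95% interval -0.51 to 0.04) and -0.02 (95% interval -0.30 to 0.25).

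Cyclin D1, which works with Cdk4 and Cdk6 and is known as a Wnt target in several vertebrate tissues, also fell. For ccnd1, siblings of hs:wnt8a had 1112, 538 and 619 CPM at 7.5 hpf, against 1125, 1237 and 1201 CPM at 5.5 hpf, and in siblings of hs:dkk1b 548, 557 and 577 CPM at 7.5 hpf, against 1106, 988 and 985 CPM at 5.5 hpf. Replicate 1 at 7.5 hpf in siblings of hs:wnt8a was close to the 5.5 hpf level, and the other libraries at 7.5 hpf were far below it. In the same 3 libraries the chaperone genes serpinh1b and hspa4a had 2003, 401 and 496 CPM and 1463, 576 and 778 CPM. Both, like wnt8a_1, were highest in replicate 1. Their part in the result was not tested. The log2 fold changes were -0.65 ± 0.23 (SE) in siblings of hs:wnt8a, with an adjusted p of 0.0275, and -0.87 ± 0.23 (SE) in siblings of hs:dkk1b, with an adjusted p of 0.00709. The change in siblings of hs:wnt8a was -1.04 without replicate 1 at 7.5 hpf, and it did not pass the test without replicate 2 or 3 at 5.5 hpf or replicate 2 or 3 at 7.5 hpf (adjusted p up to 0.147), nor when only the groups compared were fitted (adjusted p = 0.0744).

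**Figure D3:**
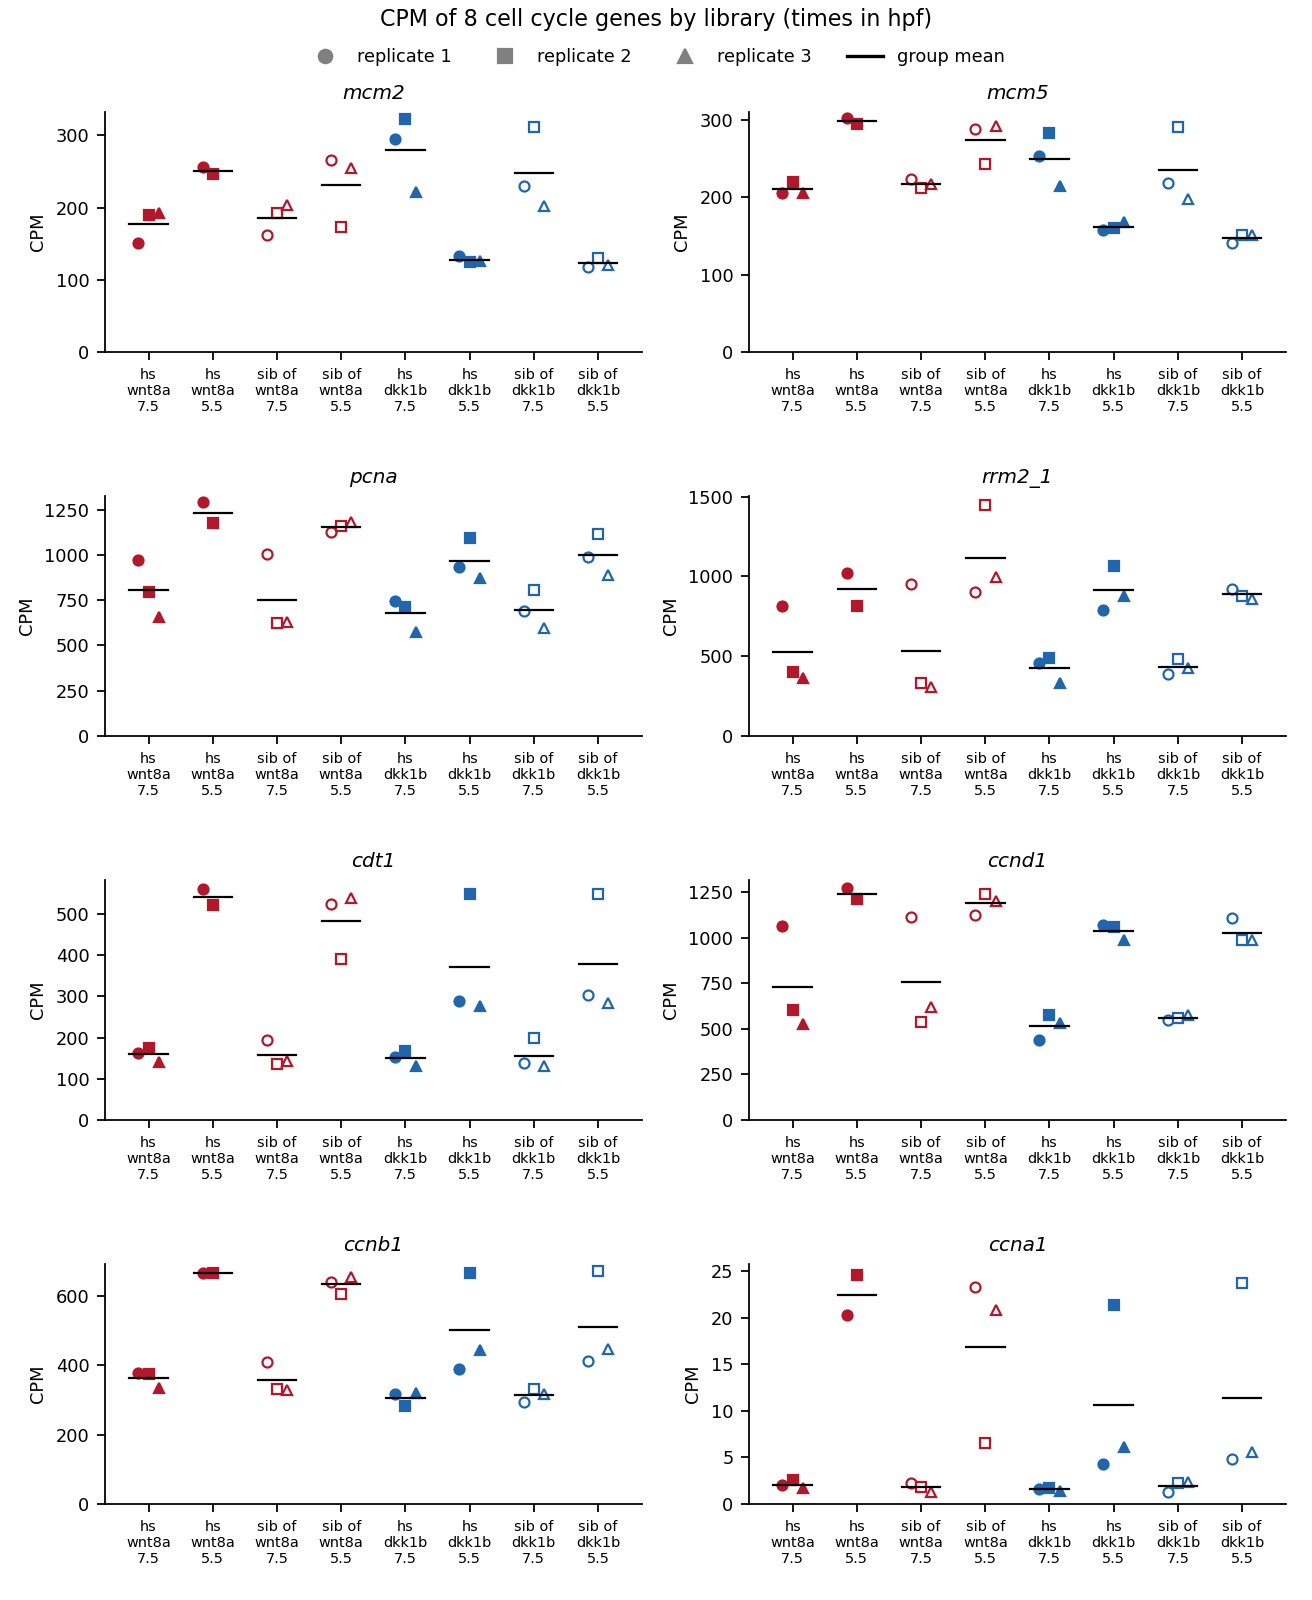
CPM of mcm2, mcm5, pcna, rrm2_1, cdt1, ccnd1, ccnb1 and ccna1 in each library of the 8 groups (hs, transgenic embryos, filled; sib of, siblings, open; red, hs:wnt8a crosses; blue, hs:dkk1b crosses), with the replicate shown by the symbol and the group mean by a line. In the hs:dkk1b crosses mcm2 and mcm5 are higher at 7.5 hpf than at 5.5 hpf, and ccnb1 and cdt1 are lower at 7.5 hpf in all crosses.

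Of the mitotic cyclins, ccna1 had the lowest level and the largest fall. Cyclin A1 is known from mouse and frog as the form of the germ line and the early embryo, and ccna2 encodes the form found in dividing cells in general. For ccna1 (ENSDARG00000043236), siblings of hs:wnt8a had 2.23, 1.85 and 1.32 CPM at 7.5 hpf, against 23.3, 6.58 and 20.8 CPM at 5.5 hpf, and in siblings of hs:dkk1b 1.27, 2.25 and 2.31 CPM at 7.5 hpf, against 4.84, 23.8 and 5.60 CPM at 5.5 hpf. Replicate 2 at 5.5 hpf was the low library in siblings of hs:wnt8a and the high one in siblings of hs:dkk1b. Its log2 fold changes were -3.23 ± 0.63 (SE) and -2.55 ± 0.63 (SE) (adjusted p = 6.18e-04 and 0.00489). At 7.5 hpf these values rest on 44, 38 and 29 counts in siblings of hs:wnt8a and 23, 40 and 41 in siblings of hs:dkk1b. Without replicate 2 at 5.5 hpf the change in siblings of hs:dkk1b was -1.42 and did not pass the test (adjusted p = 0.0813). The germ plasm gene ddx4 was high and low in the same libraries as ccna1, with 269, 133 and 278 CPM in siblings of hs:wnt8a at 5.5 hpf and 123, 286 and 121 CPM in siblings of hs:dkk1b at 5.5 hpf, and its part in the result was not tested.

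The other cyclins of mitosis fell by less and more evenly. For ccna2, siblings of hs:wnt8a had 366, 269 and 276 CPM at 7.5 hpf, against 551, 575 and 529 CPM at 5.5 hpf, and in siblings of hs:dkk1b 242, 301 and 247 CPM at 7.5 hpf, against 432, 662 and 442 CPM at 5.5 hpf. Its log2 fold changes were -0.86 ± 0.19 (SE) and -0.96 ± 0.19 (SE) (adjusted p = 0.00141 and 9.71e-04). Among the B cyclins ccnb1 (ENSDARG00000051923) had 411, 333 and 329.6 CPM at 7.5 hpf, against 641, 608 and 656 CPM at 5.5 hpf, in siblings of hs:wnt8a, and 294, 333 and 317 CPM at 7.5 hpf, against 413, 673 and 446 CPM at 5.5 hpf, in siblings of hs:dkk1b. The change of ccnb1 in siblings of hs:dkk1b, -0.70 ± 0.17 (SE) with an adjusted p of 0.00537, did not pass the test without replicate 2 at 5.5 hpf, where it was -0.45 (adjusted p = 0.0576). In siblings of hs:wnt8a it was -0.83 ± 0.17 (SE) (adjusted p = 0.0011).

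The level of ccnb2 was 84.2, 58.8 and 62.8 CPM at 7.5 hpf, against 132, 112 and 135 CPM at 5.5 hpf, in siblings of hs:wnt8a, and 56.1, 60.4 and 49.1 CPM at 7.5 hpf, against 84.7, 124 and 83.1 CPM at 5.5 hpf, in siblings of hs:dkk1b. That of ccnb3 was 66.0, 49.6 and 47.7 CPM at 7.5 hpf, against 104, 106 and 113 CPM at 5.5 hpf, in siblings of hs:wnt8a, and 50.2, 54.0 and 59.0 CPM at 7.5 hpf, against 81.6, 129 and 91.4 CPM at 5.5 hpf, in siblings of hs:dkk1b. Both fell in both lines with no overlap of libraries, ccnb2 by log2 fold changes of -0.88 and -0.82 and ccnb3 by -0.99 and -0.89. Their partner cdk1 had smaller values. Siblings of hs:wnt8a had 215, 161 and 150.0 CPM of cdk1 at 7.5 hpf, against 208, 241 and 211 CPM at 5.5 hpf, and siblings of hs:dkk1b had 161, 159 and 174 CPM at 7.5 hpf, against 153, 178 and 166 CPM at 5.5 hpf. The times overlapped in both lines, and the log2 fold changes were -0.33 ± 0.13 (SE) in siblings of hs:wnt8a, with an adjusted p of 0.0452, and -0.01 ± 0.13 (SE) in siblings of hs:dkk1b, with an adjusted p of 0.965. The first of these did not pass the test when any library of siblings of hs:wnt8a other than replicate 1 at 7.5 hpf was left out (adjusted p up to 0.192), without the filter on low counts (adjusted p = 0.0775), or when only the groups compared were fitted (adjusted p = 0.117).

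Of the 7 mitotic kinase and checkpoint genes 6 fell in each line. The checkpoint gene bub1bb had the smallest adjusted p of the set in both. Its level in siblings of hs:wnt8a was 119, 111 and 114 CPM at 7.5 hpf, against 203, 185 and 194 CPM at 5.5 hpf, and in siblings of hs:dkk1b 94.1, 101 and 105 CPM at 7.5 hpf, against 150.0, 192 and 153 CPM at 5.5 hpf. No libraries of the times overlapped, and the log2 fold changes were -0.76 ± 0.11 (SE) and -0.72 ± 0.11 (SE) (adjusted p = 5.05e-05 and 1.40e-04). The mitotic kinase genes plk1, aurka and aurkb and the checkpoint gene mad2l1 fell in both lines, with log2 fold changes between -0.32 for aurkb in siblings of hs:dkk1b and -0.67 for aurka in siblings of hs:wnt8a. These 4 calls did not hold in siblings of hs:dkk1b without replicate 2 at 5.5 hpf, nor without replicate 1 at 7.5 hpf. There plk1 and aurka were also lost without replicate 2 at 7.5 hpf. The calls of aurka, aurkb and mad2l1 were lost there without replicate 3 at 7.5 hpf. In siblings of hs:wnt8a aurka, aurkb and mad2l1 did not pass without replicate 2 or replicate 3 at 7.5 hpf. In that line aurkb and mad2l1 were also lost without replicate 1 or replicate 3 at 5.5 hpf, while plk1 passed whichever single library was left out. Adjusted p reached 0.204 over these losses. The checkpoint kinase genes bub1 and ttk each passed the test in 1 of the lines. Values were -0.25 and -0.37 for bub1, which passed in siblings of hs:dkk1b, and -0.40 and -0.24 for ttk, which passed in siblings of hs:wnt8a. The call of bub1 did not hold without replicate 2 at 5.5 hpf or replicate 1 or 3 at 7.5 hpf, and that of ttk without replicate 1 at 5.5 hpf. Whether either differed between the lines is given by the test of that difference, which did not pass (adjusted p = 0.862 and 0.808).

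Genes of chromosome structure and of the spindle came next. The proliferation marker mki67, which coats mitotic chromosomes, had 1500.3, 1498 and 1513 CPM at 7.5 hpf, against 1999.8, 2059.9 and 1999 CPM at 5.5 hpf, in siblings of hs:wnt8a, and 1218, 1208 and 1365 CPM at 7.5 hpf, against 1703, 2003 and 1844 CPM at 5.5 hpf, in siblings of hs:dkk1b. No libraries of the times overlapped, and the log2 fold changes were -0.43 ± 0.12 (SE) and -0.55 ± 0.12 (SE) (adjusted p = 0.00959 and 0.00245). For top2a, the topoisomerase that untangles sister chromatids, siblings of hs:wnt8a had 481, 464 and 451 CPM at 7.5 hpf, against 786, 796 and 772 CPM at 5.5 hpf, and siblings of hs:dkk1b 548, 526 and 551 CPM at 7.5 hpf, against 779.9, 1033 and 742 CPM at 5.5 hpf. It fell by log2 fold changes of -0.75 ± 0.13 (SE) and -0.65 ± 0.13 (SE).

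Of the chromosomal passenger complex, in which aurkb acts, cdca8 fell and birc5a did not pass the test. The level of cdca8 was 165, 127 and 121 CPM at 7.5 hpf, against 230.5, 261 and 228 CPM at 5.5 hpf, in siblings of hs:wnt8a, and 146, 179 and 152 CPM at 7.5 hpf, against 243, 308 and 241 CPM at 5.5 hpf, in siblings of hs:dkk1b. Its log2 fold changes were -0.80 ± 0.13 (SE) and -0.74 ± 0.13 (SE) (adjusted p = 1.46e-04 and 4.80e-04), where those of birc5a were -0.36 and -0.16. The cytokinesis motor kif23 had 272, 267 and 270.1 CPM at 7.5 hpf, against 489, 437 and 477 CPM at 5.5 hpf, in siblings of hs:wnt8a, and 229, 262 and 244 CPM at 7.5 hpf, against 366, 507 and 386 CPM at 5.5 hpf, in siblings of hs:dkk1b. Its log2 fold changes were -0.79 ± 0.12 (SE) and -0.78 ± 0.12 (SE) (adjusted p = 6.37e-05 and 1.41e-04). The spindle motor gene kif11 and espl1, which encodes separase, fell in siblings of hs:wnt8a, by log2 fold changes of -0.50 and -0.44, and had -0.29 and -0.34 in siblings of hs:dkk1b, which did not pass. The spindle assembly factor tpx2 and the activator of the anaphase-promoting complex, cdc20, fell in both lines, by log2 fold changes of -0.58 and -0.48 for tpx2 and -0.68 and -0.68 for cdc20. Without 1 library the call was lost for espl1 in siblings of hs:wnt8a (replicate 2 at 7.5 hpf, adjusted p = 0.0570) and for tpx2 in siblings of hs:dkk1b (replicate 2 at 5.5 hpf, adjusted p = 0.0687).

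Replication genes were then set against mitosis genes. In siblings of hs:wnt8a 9 of 10 replication genes and 20 of 22 mitosis genes fell, with median log2 fold changes of -0.68 and -0.62. Siblings of hs:dkk1b had 4 of 10 replication genes that fell and 2 that rose, while 17 of 22 mitosis genes fell, with medians of -0.41 and -0.57. The mean log2 CPM of the replication genes was 8.33 ± 0.16 (SD, n = 3) at 7.5 hpf and 9.07 ± 0.17 (SD, n = 3) at 5.5 hpf in siblings of hs:wnt8a, a difference of -0.74. In siblings of hs:dkk1b it was 8.43 ± 0.26 (SD, n = 3) at 7.5 hpf and 8.64 ± 0.15 (SD, n = 3) at 5.5 hpf, a difference of -0.20. The mitosis genes gave differences of -0.72 and -0.59. The mean of replication genes relative to mitosis genes thus moved by -0.03 with time in siblings of hs:wnt8a and by 0.39 in siblings of hs:dkk1b, where replicates at 7.5 hpf ranged from 0.98 to 1.43 and those at 5.5 hpf from 0.68 to 0.92 (log2 CPM difference). With the median over genes in place of the mean the value was -0.32 in siblings of hs:wnt8a and -0.01 in siblings of hs:dkk1b. No test was made of these means.

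**Figure D4:**
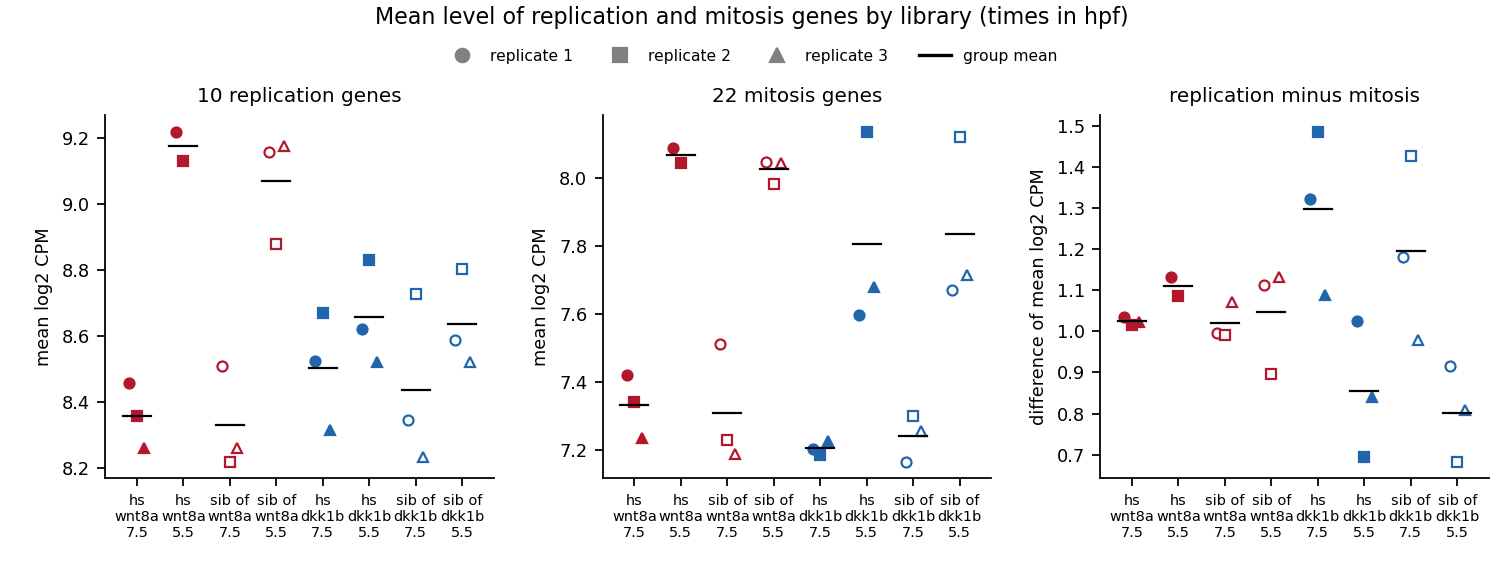
Mean log2 CPM of the 10 replication genes (left) and the 22 mitosis genes (middle) in each library, and the difference of these means (right), by group (hs, transgenic embryos, filled; sib of, siblings, open; times in hpf; lines, group means). The difference is higher at 7.5 hpf than at 5.5 hpf in the hs:dkk1b crosses and about level in the hs:wnt8a crosses.

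Transgenic embryos were compared between the times in the same way. In hs:wnt8a embryos 31 of 38 genes fell and 0 rose, with 18.1% of all genes falling and 21.5% rising. In hs:dkk1b embryos 25 fell and 2 rose, with 15% of all genes falling and 15.1% rising. The count of 27 changed genes was 17 without replicate 2 at 5.5 hpf, and the share of all genes in that run is not given here. The 2 genes that rose were again mcm2 and mcm5. In hs:dkk1b embryos mcm2 had 295, 322 and 221 CPM at 7.5 hpf, against 134, 124 and 126 CPM at 5.5 hpf, and mcm5 had 254, 283 and 214 CPM at 7.5 hpf, against 158, 161 and 168 CPM at 5.5 hpf. In hs:wnt8a embryos mcm2 had 151, 190.0 and 193 CPM at 7.5 hpf, against 256 and 247 CPM at 5.5 hpf, and mcm5 had 205, 219.8 and 206 CPM at 7.5 hpf, against 302 and 294 CPM at 5.5 hpf. These libraries share no sample with the siblings, but they come from the same crosses. The log2 fold changes in hs:wnt8a and hs:dkk1b embryos were -0.50 ± 0.19 (SE) and 1.13 ± 0.17 (SE) for mcm2 (adjusted p = 0.043 in hs:wnt8a and 1.64e-04 in hs:dkk1b embryos) and -0.50 ± 0.13 (SE) and 0.62 ± 0.12 (SE) for mcm5 (adjusted p = 0.00618 and 0.001). The call of mcm2 in hs:wnt8a embryos did not hold when any one of their libraries was left out (adjusted p up to 0.182). Of the 38 genes ccna1 had the largest change here too, -3.42 ± 0.66 (SE) and -2.74 ± 0.64 (SE). A total of 23 genes fell in all 4 comparisons between the times, where 8.73% of all genes did. Of these 23 genes 15 were mitosis genes, which are 22 of the 38, a share not far below. Only cdk2 and birc5a of the 38 genes passed in none.

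The lines were compared directly through their siblings. At 5.5 hpf 4 of 38 genes were higher in siblings of hs:wnt8a than in siblings of hs:dkk1b and 0 were lower, where 3.12% of all genes were higher and 4.61% lower, and all 4 were genes of the Mcm ring. The log2 differences, hs:wnt8a line over hs:dkk1b line, were 0.91 ± 0.17 (SE) for mcm2, 0.89 ± 0.12 (SE) for mcm5, 0.66 ± 0.18 (SE) for mcm3 and 0.56 ± 0.14 (SE) for mcm6 (adjusted p = 0.00536, 5.97e-04, 0.0306 and 0.0197 in that order). The count ranged from 2 to 9 when single libraries were left out. It was 9 without replicate 2 of siblings of hs:dkk1b, 2 without replicate 3 of that group, and 2 without replicate 1 or replicate 3 of siblings of hs:wnt8a, and mcm2 and mcm5 passed in each of these. The 9 include genes outside the Mcm ring, and the shares of all genes in these runs are not given here. The call of mcm3 did not hold without 5 of the 6 single libraries (adjusted p up to 0.123), nor that of mcm6 without 3 of the 6 (adjusted p up to 0.114) or when only the groups compared were fitted (adjusted p = 0.0872). At 7.5 hpf 0 genes passed by edgeR and 1, the checkpoint kinase gene ttk, by DESeq2, with 3 at an unadjusted p under 0.05, and 0.928% of all genes were higher and 0.841% lower by edgeR after adjustment. The shares of all genes at the unadjusted p and by DESeq2 are not given here. The levels of mcm2 and mcm5 given above at 7.5 hpf overlapped between the lines.

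The difference between the lines in the change with time was tested by an interaction, and it passed for 0 of 38 genes by edgeR, as for 0% of all genes tested. At an unadjusted p under 0.05 there were 5 of 38, beside 1929 of all 19504 genes, a share not far below. These 5 were mcm2, mcm3, mcm4, mcm5 and mcm6, and their count is not read as a trait of the set. The interaction was -1.33 ± 0.24 (SE) for mcm2 and -1.003 ± 0.172 (SE) for mcm5, hs:wnt8a line minus hs:dkk1b line on the log2 scale (adjusted p = 0.0774 and 0.0774). DESeq2 called 2 genes, mcm2 and mcm5. With the replicate number as a block edgeR called the same 2, with interactions of -1.30 for mcm2 and -0.99 for mcm5 (adjusted p = 0.0480 for each). The replicate numbers paired the times in siblings of hs:dkk1b but not in siblings of hs:wnt8a. Without replicate 2 of siblings of hs:wnt8a at 5.5 hpf mcm2, mcm5 and mcm6 passed, and without replicate 3 of siblings of hs:dkk1b at 7.5 hpf mcm5 passed. The shares of all genes called in these alternative runs are not given here, so these calls are not read as a trait of the set. Both comparisons between lines use the same sibling libraries. The lines also differed in the heat shock given. Siblings of hs:wnt8a held more wnt8a_1 reads at 5.5 hpf, by a log2 difference of 6.55 ± 0.98 (SE). The second entry of the gene, wnt8a_2, was lower in them at 5.5 hpf, by -1.71 ± 0.27 (SE) (adjusted p = 0.00138 by edgeR). Line, heat shock and the wnt8a reads cannot be told apart. At 5.5 hpf the chaperone genes hspa4a and serpinh1b were higher in siblings of hs:wnt8a, by log2 differences of 2.70 ± 0.52 (SE) and 1.97 ± 0.51 (SE), and the summed level of 17 heat shock genes was 43642 to 58918 CPM in siblings of hs:wnt8a and 24595 to 29365 CPM in siblings of hs:dkk1b. Their part in the Mcm values was not tested.

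Neither transgene changed a gene of the set past the threshold. At 7.5 hpf 0 of 38 genes passed in hs:wnt8a embryos over siblings and 0 in hs:dkk1b embryos over siblings, where 0.0974% and 0.154% of all genes passed. At 5.5 hpf the counts were likewise 0 and 0, with 0% and 0.0513% of all genes. The carried gene wnt8a_1 itself did not pass in hs:wnt8a embryos at 5.5 hpf, at a log2 fold change of 2.43 ± 0.84 (SE). That comparison did not call its own transgene, so its 0 of 38 cannot show that the genes were unchanged. DESeq2 also called 0 of 38 in each of the 4 comparisons, and 0 of 38 had an unadjusted p under 0.05 by edgeR in any of them. The shares of all genes by DESeq2 and at that unadjusted p are not given here, so these counts are not read as unchanged levels. These fits also leave out the pairing of replicate numbers that is used below. Every sibling library of hs:wnt8a at 5.5 hpf held the wnt8a_1 reads given above, so no value without them was available. At 7.5 hpf the comparison without sibling replicate 1, which held the most, again gave 0 of 38, with 3 at an unadjusted p under 0.05. The share of all genes at that unadjusted p is not given here, so the 3 are not read as an effect. Log2 fold changes of the 38 genes ran from -0.13 to 0.22 for hs:wnt8a at 7.5 hpf, from -0.28 to 0.45 for hs:wnt8a at 5.5 hpf, from -0.29 to 0.22 for hs:dkk1b at 7.5 hpf and from -0.10 to 0.13 for hs:dkk1b at 5.5 hpf. The 95% interval lay within 0.5 of 0 on the log2 scale for 29, 22, 27 and 32 genes in the same order. A p above the threshold does not show equal levels, and for ccna1 the interval in hs:wnt8a embryos at 7.5 hpf was -1.12 to 1.56.

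**Figure D5:**
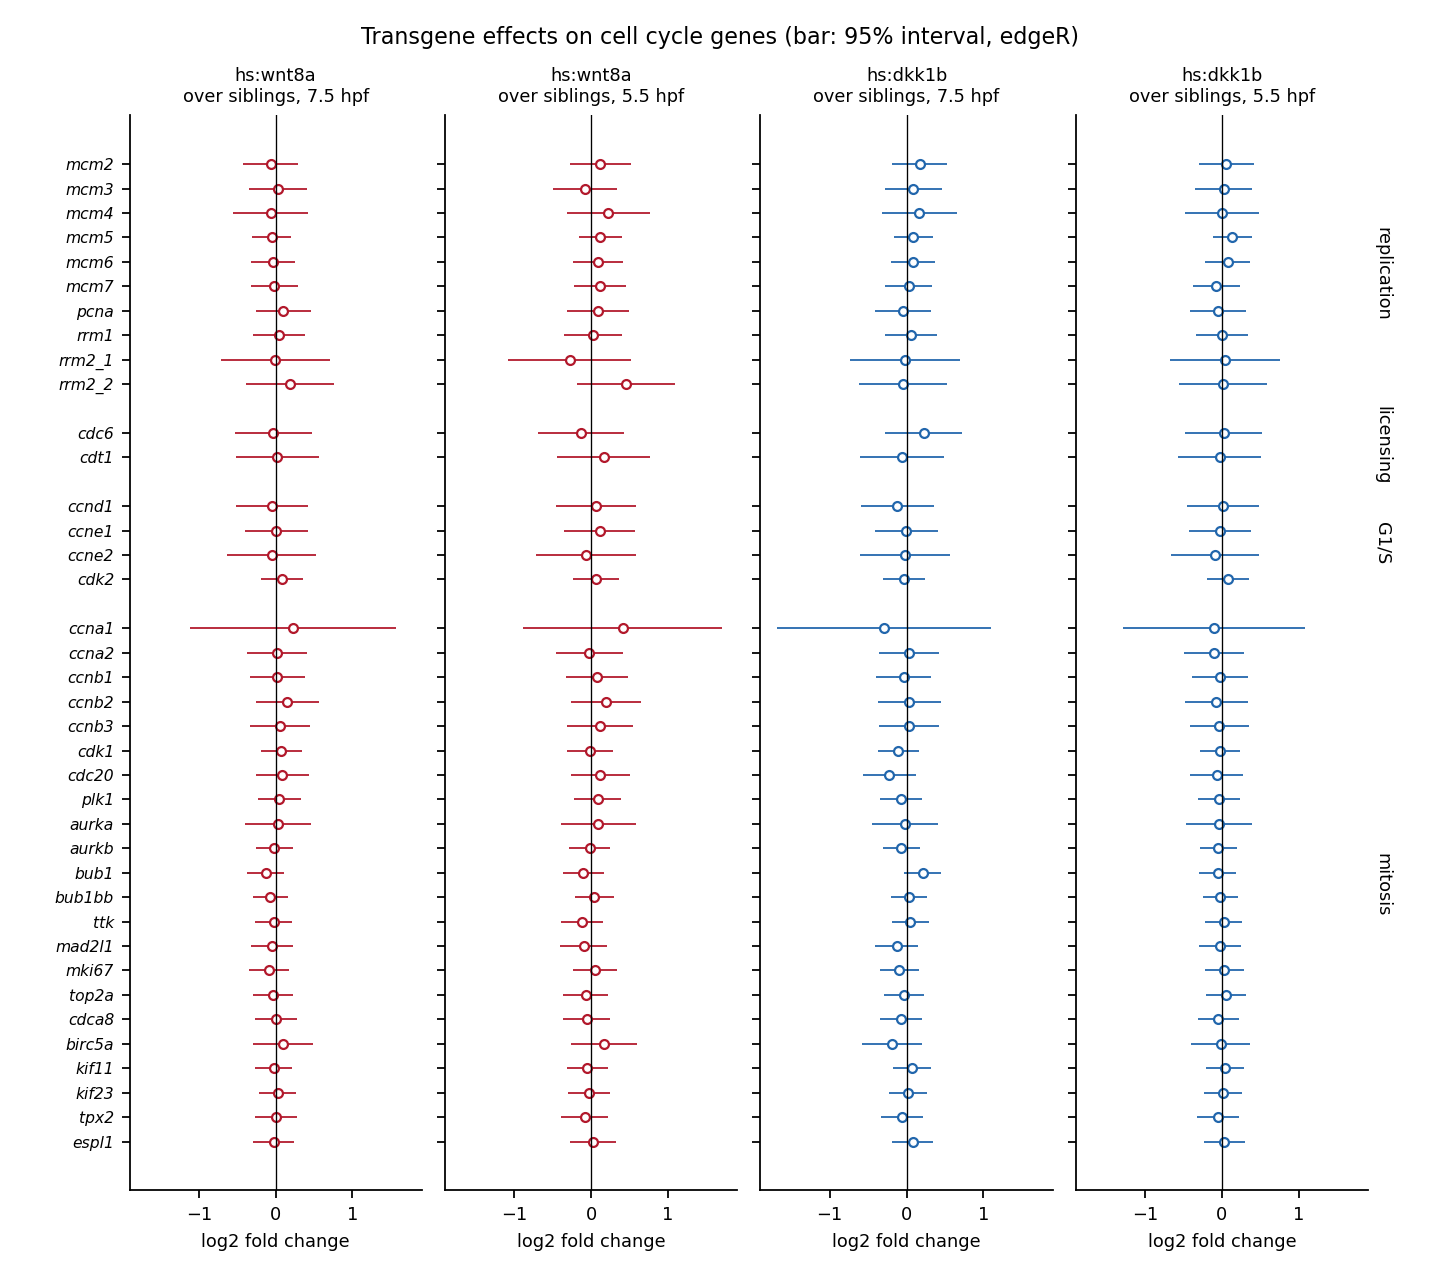
Log2 fold change of each of the 38 genes in transgenic embryos over their siblings (points) with 95% intervals from edgeR (bars), in 4 panels by transgene and time. All intervals cross 0, and that of ccna1 is the widest.

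Values of single libraries are given here for ccnd1 and ccnb1 as examples, and they do not speak for the other genes. The cyclin D1 gene ccnd1 had 1062, 603 and 528 CPM in hs:wnt8a embryos at 7.5 hpf, against 1112, 538 and 619 CPM in siblings, and 438, 578 and 534 CPM in hs:dkk1b embryos at 7.5 hpf, against 548, 557 and 577 CPM in siblings. Groups overlapped in both, and replicate 1 of the hs:wnt8a cross was high in transgenic embryos and siblings alike. The log2 fold changes of ccnd1 were -0.05 ± 0.23 (SE) for hs:wnt8a and -0.12 ± 0.23 (SE) for hs:dkk1b, with 95% intervals of -0.52 to 0.42 and -0.59 to 0.35. At 5.5 hpf ccnb1 had 391, 668 and 445 CPM in hs:dkk1b embryos, against 413, 673 and 446 CPM in siblings, so that each transgenic library lay near the sibling library of its own number. Same-numbered transgenic and sibling libraries deviated together in both hs:dkk1b comparisons and in the hs:wnt8a comparison at 7.5 hpf. With the replicate number as a block in these 3 comparisons 0 of 38 genes passed in each, where 0.385% of all genes passed for hs:wnt8a at 7.5 hpf, 0.749% for hs:dkk1b at 7.5 hpf and 0.246% for hs:dkk1b at 5.5 hpf. The median 95% interval then reached 0.17 to either side of the estimate on the log2 scale in each of them. The blocked counts at an unadjusted p under 0.05 were 0, 4 and 0 of 38, beside 5.3%, 8.13% and 3.67% of all genes. The 4 were cdc6, bub1, cdc20 and birc5a, with blocked log2 fold changes of 0.25, 0.21, -0.22 and -0.19. A count of 4 of 38 is near the 8.13% of all genes, so it is not read as an effect on the set. The difference of each transgene effect between 7.5 and 5.5 hpf was tested as an interaction, and 0 of 38 genes passed by edgeR or DESeq2. By edgeR 0.00513% of all genes passed for hs:wnt8a and 0% for hs:dkk1b. At an unadjusted p under 0.05 there were 0 of 38, and the share of all genes at that p is not given here.

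Other genes of the same pathways were taken from lists put together by name, and 0 of their genes passed in any of the 4 comparisons of transgenic embryos with siblings. Of all genes 0.0974% passed for hs:wnt8a and 0.154% for hs:dkk1b at 7.5 hpf. At 5.5 hpf the shares were 0% and 0.0513%. Beside shares this low the 0 is not a trait of these lists. Pairs of values below are log2 fold changes, 7.5 hpf over 5.5 hpf, in siblings of hs:wnt8a and then of hs:dkk1b. Beside the counts of these lists, 18.4% of all genes fell and 21.8% rose in siblings of hs:wnt8a. In siblings of hs:dkk1b 15.4% of all genes fell and 15.6% rose. Counts near these shares are not a trait of a list. Of 19 origin recognition and fork genes 3 fell and 4 rose in siblings of hs:wnt8a, and 2 fell and 7 rose in siblings of hs:dkk1b, with medians of -0.02 and 0.03. Named by adjusted p, orc1 and orc3, of the complex that marks origins, rose in both lines (0.40 and 0.66 for orc1, 0.98 and 0.45 for orc3), as did the Mcm binding protein gene mcmbp (0.34 and 0.70), and the replication kinase gene cdc7 fell in both (-0.78 and -0.42). Of 19 polymerase and clamp loader genes 1 fell and 2 rose in siblings of hs:wnt8a, and 1 fell and 5 rose in siblings of hs:dkk1b, with medians of 0.02 and 0.09. Those named were pola2 (0.55 and 0.65), the DNA ligase gene lig1 (-0.66 and -0.40), the primase gene prim2 (0.55 and -0.07) and the clamp loader gene rfc2 (0.02 and 0.47), of which prim2 passed in siblings of hs:wnt8a and rfc2 in siblings of hs:dkk1b.

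Nucleotide supply was mixed, with 3 of 11 genes lower and 4 higher in siblings of hs:wnt8a, and 4 lower and 4 higher in siblings of hs:dkk1b (medians 0.14 and 0.17). The pyrimidine and purine synthesis genes umps and gart rose (0.98 and 0.94, and 1.43 and 1.04), the thymidine kinase gene tk1 fell (-1.05 and -0.63), and dhfr rose in siblings of hs:wnt8a and fell in siblings of hs:dkk1b (0.77 and -0.59). Of 14 E2F and RB genes 7 fell and 3 rose in siblings of hs:wnt8a, and 5 fell and 1 rose in siblings of hs:dkk1b (medians -0.21 and -0.15). The repressor gene e2f8 fell in both lines (-1.72 and -1.21), tfdp2, which encodes an E2F partner, rose in both (1.60 and 2.02), and e2f7 passed in siblings of hs:wnt8a (-0.92 and -0.38). In the list of CDK inhibitors and p53 targets 3 of 14 tested genes fell and 0 rose in siblings of hs:wnt8a, and 2 fell and 2 rose in siblings of hs:dkk1b (medians -0.17 and 0.12), with gadd45ba lower in both (-1.29 and -1.02) and cdkn1cb in siblings of hs:wnt8a (-1.04 and -0.15). The genes that rose in siblings of hs:dkk1b were sesn2 (0.47 and 0.77) and the CDK inhibitor gene cdkn1ba (0.54 and 0.73).

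Of the 4 other D cyclin and Cdk4/6 genes, ccnd3 fell in both lines (-2.57 and -1.61) and cdk4 rose in both (0.46 and 0.44), while cdk6 fell in siblings of hs:dkk1b (-0.37 and -1.22). Among 17 genes of G2 and mitotic entry 3 fell and 4 rose in siblings of hs:wnt8a, and 6 fell and 2 rose in siblings of hs:dkk1b (medians -0.21 and -0.23). Those named were wee2, the egg form of the Cdk1-inhibiting kinase (-2.79 and -2.04), the checkpoint kinase gene atr, which rose (2.04 and 1.15), cks2 (1.21 and 1.18) and ccnf (-0.75 and -0.66). The 18 genes of the anaphase-promoting complex and its regulators showed 5 falls and 3 rises in siblings of hs:wnt8a. In siblings of hs:dkk1b they showed 3 falls and 1 rise, and the medians were 0.00 and 0.08. The gene fbxo5, whose product inhibits that complex, fell in both lines (-1.64 and -1.23). In siblings of hs:wnt8a only, anapc4 (0.72 and 0.41) and anapc1 (0.75 and 0.39) rose and ube2c_1 fell (-0.72 and -0.42).

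Lists of structural mitosis genes held more falls than rises. Of 18 condensin and cohesin genes 11 fell in siblings of hs:wnt8a and 10 in siblings of hs:dkk1b, with 1 rise in each (medians -0.40 and -0.46), among them ncapd2 (-0.85 and -0.62), smc1al (-0.58 and -0.74), rad21a (-0.67 and -0.52) and stag2b (-0.37 and -0.64). Of 19 spindle and cytokinesis genes 11 fell in each line, with 0 and 1 rises (medians -0.44 and -0.36), led by prc1a, a crosslinker of the central spindle (-1.42 and -1.23), with kif22 (-0.81 and -0.81), kifc1 (-0.85 and -0.62) and hmmr (-0.95 and -0.48). Of 18 kinetochore and checkpoint genes 8 and 6 fell and 1 rose in each line (medians -0.24 and -0.32), with ndc80 (-0.60 and -0.73), nuf2 (-0.73 and -0.58) and cenpi (-0.52 and -0.64) lower in both. The gene cenpk (-0.19 and -0.57) passed in siblings of hs:dkk1b only.

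Egg-supplied and germ line transcripts included genes that fell over the same interval. Of 14 maternal transcripts tested 9 fell in siblings of hs:wnt8a and 5 in siblings of hs:dkk1b, with 0 rises, the linker histone gene h1m by log2 fold changes of -3.03 and -2.47 and the maternal gene org by -2.52 and -2.06. The summed level of 16 maternal transcripts was 59.0 to 108 CPM at 7.5 hpf, against 185 to 272 CPM at 5.5 hpf, in siblings of hs:wnt8a, and 83.7 to 108 CPM at 7.5 hpf, against 155 to 307 CPM at 5.5 hpf, in siblings of hs:dkk1b. Of 6 germ line genes 2 fell in siblings of hs:wnt8a and 3 in siblings of hs:dkk1b, with 0 rises. They summed to 55.0 to 95.3 CPM at 7.5 hpf, against 222 to 342 CPM at 5.5 hpf, in siblings of hs:wnt8a, and 58.2 to 73.1 CPM at 7.5 hpf, against 169 to 376 CPM at 5.5 hpf, in siblings of hs:dkk1b. Of 9 markers of the enveloping layer, an outer epithelium, 4 rose and 2 fell in each line, and they summed to 19998 to 21088 CPM at 7.5 hpf, against 18296 to 18979 CPM at 5.5 hpf, in siblings of hs:wnt8a, and 20451 to 23293 CPM at 7.5 hpf, against 17789.8 to 21749 CPM at 5.5 hpf, in siblings of hs:dkk1b. Of 7 markers of the yolk syncytial layer, whose nuclei stop dividing before gastrulation, 1 rose and 3 fell in each line, and they summed to 1212 to 1377 CPM at 7.5 hpf, against 835 to 935 CPM at 5.5 hpf, in siblings of hs:wnt8a, and 1296 to 1536 CPM at 7.5 hpf, against 692 to 963 CPM at 5.5 hpf, in siblings of hs:dkk1b. The marker that rose was apoa1b (log2 fold changes 1.49 and 1.58), while gata6, hnf4a and rasgef1ba fell. The higher sum is therefore not a rise of most of these markers. Of 17 heat shock genes 1 rose and 2 fell in siblings of hs:wnt8a, and 1 rose and 0 fell in siblings of hs:dkk1b. No gene of the maternal, germ line, enveloping layer and yolk syncytial lists was at 0 in all 23 libraries, and zeros within a group were not counted. The part of these levels in the fall of the cell cycle genes was not tested.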

How the data were processed

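RNA-seq libraries of whole zebrafish embryos were analysed from per-library gene tables. The authors deposited 3 values per gene: a count, an RPKM and a TPM. The counts were used for every test, the authors' TPM only to compare levels between genes, and the deposited RPKM not at all. The submitters' processing notes name edgeR and GRCz11; the aligner, the counter and its use of strand were not stated, and no coordinates or sequences are printed. Totals ran from 13845788 to 20467185 counts per library.

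Counts of 23 libraries were scaled by TMM and filtered with filterByExpr, which left 19504 genes, and fitted by group means with edgeR 4.0.16 in R 4.3.3 (quasi-likelihood F test, Benjamini-Hochberg adjustment over all genes, threshold 0.05). Standard errors were taken as |log2 fold change| / sqrt(F), and intervals are at 95%. Log2 CPM uses a prior count of 2. The procedure was tested on simulated data. Replication and mitosis levels are means of log2 CPM over genes, with no test. Alternatives were RLE scaling, DESeq2 1.42.0, no filter, the compared groups alone, a replicate block, and leaving out libraries, of which the removal of both libraries of replicate 2 at 5.5 hpf (each cross) and of replicate 1 of the hs:wnt8a cross at 7.5 hpf was chosen after seeing the data.

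Members and lists were chosen with earlier results of these data known. Values in every library are given for at most 12 members past the threshold in any comparison, by smallest adjusted p, and for the A, B and E cyclins, pcna, mcm2, cdk1, mki67 and ccnd1. Genes of other lists are named from the 4 with the smallest adjusted p in the sibling changes with time, and not all 4 are named for every list. Same-numbered libraries were taken as paired where every correlation of deviations was over 0.1: transgenic and sibling libraries of hs:dkk1b at 7.5 hpf (0.465 to 0.606) and 5.5 hpf (0.476 to 0.707) and of hs:wnt8a at 7.5 hpf (0.307 to 0.726), and siblings of hs:dkk1b between the times (0.167 to 0.311). The pairing comes from the data, not the labels.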

Additional observations from a re-analysis of the deposited data

How the results depend on the processing

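No called direction of a gene turned under any alternative run, and all transgene comparisons gave 0 of 38 genes. Leaving out single libraries gave 16 to 29 changed genes between the times in siblings of hs:dkk1b (28 with all), 25 to 36 in siblings of hs:wnt8a (34), 17 to 27 in hs:dkk1b embryos (27) and 21 to 31 in hs:wnt8a embryos (31). Without both libraries of replicate 1 of the hs:dkk1b cross at 7.5 hpf siblings of hs:dkk1b gave 18. For the difference between lines in the change with time (0 genes), DESeq2 gave 2, the replicate block 2, and single libraries left out 0 to 3. Without both libraries it gave 3 (replicate 2, hs:dkk1b, 5.5 hpf), 2 (replicate 1, hs:wnt8a, 7.5 hpf) and 2 (replicate 2, hs:wnt8a, 5.5 hpf). Between lines at 5.5 hpf (4 genes), DESeq2 gave 7, the block 7, single libraries left out 2 to 9, and 15 passed without both libraries of replicate 2 of the hs:dkk1b cross. Counts of 7 and more include genes outside the Mcm ring. The shares of all genes passing in the alternative runs of this section are not given here. At 7.5 hpf (0 genes), DESeq2 gave 1, the block 1, and 1 passed without both libraries of replicate 1 of the hs:wnt8a cross. The cause of these moves was not tested.

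The change with time in replication minus mitosis level was -0.03 in siblings of hs:wnt8a, -0.32 with medians over genes and -0.102 to 0.0146 with single libraries left out, reversed without replicate 1 (0.00506) or replicate 3 (0.0146) at 5.5 hpf. In siblings of hs:dkk1b it was 0.39, reversed to -0.014 with medians, and 0.277 to 0.501 with libraries left out. In hs:wnt8a embryos medians gave -0.31 and libraries left out -0.107 to -0.0619, and in hs:dkk1b embryos 0.11 and 0.350 to 0.549. The block gave 32, 34 and 28 changed genes between the times in siblings of hs:dkk1b, siblings of hs:wnt8a and hs:dkk1b embryos. Where numbers did not pair, the block for hs:wnt8a at 5.5 hpf gave 0 genes, and correlations there were -0.0865 and -0.0676. With 2 or 3 libraries a group, the median interval of a transgene effect reached 0.34 to 0.38 on the log2 scale to either side without the block, and 0.17 with it in the 3 comparisons whose numbers paired.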
